A study of Mus musculus with 2 samples.

Results

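The cells described here are Epcam-high tumor cells that carry RNA of mucosal defense genes in mouse pancreatic tumors. A cell barcode was a member when it met every part of a rule on its unique molecular identifiers (UMIs), the tags that count captured molecules. The rule asked for at least 3000 UMIs, at most 1 UMI of the leukocyte gene Ptprc, and under 0.3% of the UMIs from the collagen genes Col1a1, Col1a2 and Col3a1. It also asked for at least 0.2% from the keratins Krt8 and Krt18, at least 0.04% from Epcam, and at least 0.05% from Pigr, Ltf, Mmp7 and Dmbt1 together. In all, 980 of 24282 barcodes were members. The cells were thus selected on their UMI count and on the levels of these 11 genes, whose values are given below as a description, with no test.

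The series set orthotopic KPC pancreatic tumors treated with EIPA at 10 mg/kg beside tumors treated with DMSO, the vehicle. EIPA blocks sodium-proton exchange and, with it, macropinocytosis, the bulk uptake of fluid by cells. KPC is the usual name of a genetically engineered mouse model of pancreatic cancer, and orthotopic tumors grow in the pancreas. Each treatment was 1 sample of 4 pooled tumors, and the labels give no strain, age or sex of the mice. Cells of both samples stand in 1 matrix of 19059 genes, in which a number after the barcode tells library 2 and library 1 apart. No label ties that number to EIPA or DMSO, so the libraries are given by number and no direction of treatment can be read. Each treatment has a single library, so nothing is replicated and no test is given. The intervals below are 95% intervals that cover counting error only, and they say nothing of differences between tumors.

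Library 2 held 376 members of 11945 barcodes, or 3.15% (2.84 to 3.48), and library 1 held 604 of 12337, or 4.90% (4.52 to 5.29). The ratio of the shares, library 2 over library 1, was 0.643 (0.567 to 0.730). With Dmbt1 left out of the sum of the mucosal genes it was 0.298. Part of that difference lay in the Epcam criterion. Of the cells that passed the UMI, Ptprc, collagen and keratin criteria, 13.5% of 6130 in library 2 and 18.2% of 6376 in library 1 reached the Epcam level. Of those Epcam-high cells, 45.3% of 830 in library 2 and 51.9% of 1163 in library 1 also reached the level of the 4 mucosal genes, a ratio of 0.872. The members held 9156343 UMIs in library 2 and 16361919 in library 1, with medians of 16250 and 17185 UMIs per cell. The median mitochondrial share of members was 0.583% in library 2 and 0.427% in library 1. A doublet caller marked 3.99% of the members of library 2 and 12.3% of those of library 1, against 9.55% and 9.87% of all barcodes of these libraries. Without the marked cells the member shares were 3.02% in library 2 and 4.30% in library 1. The libraries had 225 barcode sequences in common, 8 members of each library carried one of them, and no such sequence was a member in both.

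Mucosal epithelia of the gut, airway and ducts keep microbes at a distance with secreted proteins. The polymeric immunoglobulin receptor, made by Pigr, carries IgA across the epithelial cell into the lumen. Lactotransferrin (Ltf) withholds iron from bacteria, Dmbt1 is a secreted scavenger glycoprotein that binds bacteria and mucus, and Mmp7, or matrilysin, is a metalloproteinase that activates defensins in the mouse intestine. Epcam is an adhesion protein of epithelial cells that is lost in cells with mesenchymal traits. In the pancreas these defense genes are known from ducts, from inflamed or injured tissue and from early neoplastic epithelium.

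Dmbt1 supplied most of what made a cell a member. It gave 90.6% of the UMIs of the 4 genes in the members of library 2 and 88.0% in those of library 1. Its level, given as CPM (the counts of a gene scaled to the same UMI total in every group), was 3749 CPM (3709 to 3789) in library 2 and 4977 CPM (4943 to 5012) in library 1. Dmbt1 alone reached 0.05% in 348 members (92.6%) of library 2 and 532 (88.1%) of library 1. Within a library it spread widely from cell to cell: the median member had 0.223% of its UMIs from Dmbt1 in library 2 and 0.178% in library 1, and the highest had 2.96% and 4.84%. Without Dmbt1 in the sum, 62 cells of library 2 and 215 of library 1 would have met the rule. The name mucosal defense therefore rests, for most members, on this 1 gene.

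The other 3 genes were uneven, and each was lower in the members of library 2. Pigr stood at 162 CPM (153 to 170.0) in library 2 and 270.0 CPM (262 to 278) in library 1. Mmp7 stood at 105 CPM (98.1 to 112) in library 2 and 256 CPM (249 to 264) in library 1. Ltf stood at 122 CPM (115 to 130) in library 2 and 153 CPM (147 to 159) in library 1. A few cells held much of this RNA: in library 2 the 3 highest members gave 57.7% of the Mmp7 UMIs and 40.3% of the Ltf UMIs, against 20.9% and 12.7% in library 1. A UMI of Pigr was found in 29.0% of the members of library 2 and 57.5% of those of library 1. With every cell thinned to 3000 UMIs, which takes depth out of the comparison, the Pigr shares were 16.5% in library 2 and 29.97% in library 1, the Ltf shares 14.9% and 25.5%, and the Mmp7 shares 7.18% and 21.2%. Probes differ in number and yield between genes, so CPM values are compared here between groups of cells and not between genes.

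**Figure D1:**
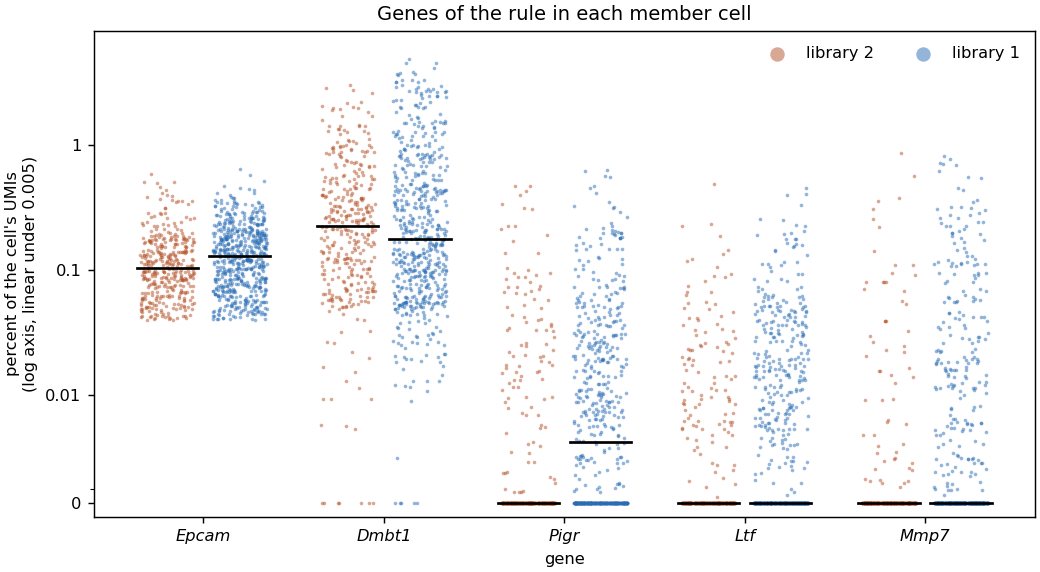
Percent of each member cell's UMIs that came from Epcam and the 4 mucosal genes (log axis, linear under 0.005), in library 2 and library 1; each point is 1 cell and the black bars are medians. Dmbt1 has medians of 0.223% in library 2 and 0.178% in library 1, whereas the medians of Ltf and Mmp7 are 0 in both libraries.

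Free RNA can give UMIs in cells that do not make a gene, and Dmbt1 was found widely. The part of free RNA in the values below was not tested. In cells with at least 1% collagen UMIs and under 0.05% keratin UMIs (58 in library 2 and 107 in library 1, median 9119 and 7213 UMIs), 48.3% and 55.1% had a Dmbt1 UMI, at 87.7 and 101 CPM. With cells thinned to 3000 UMIs these shares were 20.7% and 23.4%, against 93.4% and 92.6% of members. Pigr UMIs were seen in 3.45% and 4.67% of the collagen cells, and Ltf UMIs likewise in 3.45% and 4.67%. Epcam-high cells under the mucosal threshold held 141 CPM Dmbt1 in library 2 and 188 CPM in library 1, and 3.84 and 5.16 CPM Pigr. Cells under the Epcam threshold held 274.5 and 336 CPM Dmbt1, and 9.09% of them in library 2 and 15.3% in library 1 reached the mucosal threshold too. Among Epcam-high cells, the highest non-member had 0.04999% of its UMIs from the 4 genes in either library. The lowest members had 0.05018% in library 2 and 0.0501% in library 1. Epcam-high cells between 0.04% and 0.05% numbered 23 in library 2 and 54 in library 1, and members between 0.05% and 0.06% numbered 18 and 47.

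The region upstream of the start site is shown for Pigr, Ltf and Mmp7, the mucosal genes of the rule with a promoter entry in RefSeq, because these genes, together with Dmbt1, picked the cells. Each is the 250 bases before the annotated start, on the gene's own strand, from RefSeq on build GRCm38.p6. Capitals mark matches, on either strand, to the motifs of the TATA box, AP-1, STAT, forkhead and GATA factors, whose letters are given after the sequences.
Pigr: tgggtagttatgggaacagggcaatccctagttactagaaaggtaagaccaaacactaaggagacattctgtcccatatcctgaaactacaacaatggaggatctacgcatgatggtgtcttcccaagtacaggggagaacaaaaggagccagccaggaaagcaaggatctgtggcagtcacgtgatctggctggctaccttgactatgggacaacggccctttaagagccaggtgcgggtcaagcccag
Ltf: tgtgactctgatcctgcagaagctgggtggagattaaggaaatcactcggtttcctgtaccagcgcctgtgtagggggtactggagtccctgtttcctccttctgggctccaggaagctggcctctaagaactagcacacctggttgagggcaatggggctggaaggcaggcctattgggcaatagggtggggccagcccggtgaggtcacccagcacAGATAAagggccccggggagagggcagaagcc
Mmp7: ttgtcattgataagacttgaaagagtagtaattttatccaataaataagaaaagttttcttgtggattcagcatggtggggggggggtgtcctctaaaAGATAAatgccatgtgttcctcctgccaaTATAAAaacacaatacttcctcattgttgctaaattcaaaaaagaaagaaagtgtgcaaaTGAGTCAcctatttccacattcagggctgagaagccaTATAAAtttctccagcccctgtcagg
The Pigr window, chr1:130826434-130826683 on the plus strand, held no match. The Ltf window, chr9:111019042-111019291 on the plus strand, held 1 GATA match. The Mmp7 window, chr9:7691840-7692089 on the plus strand and before the first of 2 listed starts, held 2 TATA matches, of which 1 lay 26 to 21 bases before the start, as well as 1 AP-1 and 1 GATA match. The matches did not overlap. Of 32851 mouse promoter windows in RefSeq, 12.4% held the TATA box letters TATAAA. The AP-1 letters TGANTCA were held by 6.75% of them. The STAT letters TTCNNNGAA were held by 7.02% of them. The forkhead letters TGTTTAC were held by 3.17%, and the GATA letters AGATAA by 9.99%. A match describes the sequence and does not show that a factor binds, and a window without one says nothing of the factor. Dmbt1 lies on chromosome 7 between positions 131032057 and 131121628 and Epcam on chromosome 17 between 87635979 and 87651127.

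Pigr and Ltf were often found in the same members, and in library 1 so were Mmp7 and Ltf. In cells thinned to 3000 UMIs, Ltf was detected in 32.3% (20 of 62) of the Pigr-positive members of library 2 and in 11.5% (36 of 314) of the others. In library 1 the shares were 45.3% (82 of 181) and 17.0% (72 of 423). Without thinning they were 43.1% and 26.6% in library 2, and 62.5% and 31.1% in library 1. In the thinned cells Ltf was also detected in 25.9% (7 of 27) of the Mmp7-positive members of library 2 and in 14.04% of the others, and in 43.0% (55 of 128) and 20.8% in library 1. Pigr was detected in 14.8% of the Mmp7-positive members of library 2 and in 16.6% of the others, and in 37.5% and 27.9% in library 1. All 4 genes are part of the sum that chose the cells, so these shares are a description; a cell with enough of one gene needs none of the others to be a member. Only 1 member of library 2 and 15 of library 1 had all 4 genes at 0.05% or more.

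The label of epithelial tumor cells was checked against markers. Besides Epcam (1171 CPM in members of library 2 and 1296 CPM in those of library 1), which was part of the rule, members carried Krt19 at 3556 and 3369 CPM, Cdh1 (E-cadherin) at 972 and 1070 CPM and the tight junction claudin Cldn7 at 449 and 465 CPM. The 22 acinar markers summed to 70.2 CPM in members and 24.2 CPM in the other Epcam-high cells of library 2, and to 59.4 and 21.3 CPM in library 1. Most of this was Cela1, an elastase, which stood at 61.1 against 17.8 CPM and at 50.6 against 15.7 CPM. The acinar enzyme Cpa1 stood at 0.328 and 0.0611 CPM in members and the acinar factor Ptf1a at 0 in both libraries. The 12 endocrine markers summed to 7.97 CPM in library 2 and 6.36 CPM in library 1. Macrophage markers summed to 425 and 473 CPM, of which Cd14 gave 258 and 277, against 428 and 382 CPM in the other Epcam-high cells. Markers of fibroblasts summed to 52.1 and 57.9 CPM, of endothelium to 22.9 and 49.9, of neutrophils to 11.6 and 15.7, and of T cells to 13.7 and 7.40. The 7 markers of B and plasma cells summed to 7.43 CPM in library 2, whereas Igkc alone stood at 244 CPM in library 1. There a single member held 3891 of the 3991 UMIs of the immunoglobulin gene Igkc. The RNA here does not tell a cancer cell with the KPC mutations from a normal or reactive epithelial cell of the pancreas, and they were not separated.

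Members were first set against the cells most like them, the 454 Epcam-high cells of library 2 and 559 of library 1 that held under 0.05% of the 4 mucosal genes. A gene was counted as higher or lower when its log2 ratio of CPM plus 1 was at least 1 in size, a 2-fold difference, in both libraries. Of 8908 genes with at least 20 CPM in members or these cells, 166 (1.86%) were higher in members and 60 (0.674%) were lower, the genes of the rule left out. The median log2 ratio over all of these genes was -0.01 in each library, and 48.0% of them were above 0 in each. The genes furthest above were, in order, Reg1, Reg3b, Reg3g, Ttr, Prap1, Tff2, Gsta3, Gkn3, Spink4, Adamts15, C4b and Ckmt1. Among the 12 furthest below were Acan, Ctla2a, Tmem95, Sema4f, Pgf, Aqp3, Cldn4, Lama3, Slc4a11, Coro6 and Hmga2. The groups differ by the 4 mucosal genes through the choice of cells, so what follows describes which other genes went with them.

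**Figure D2:**
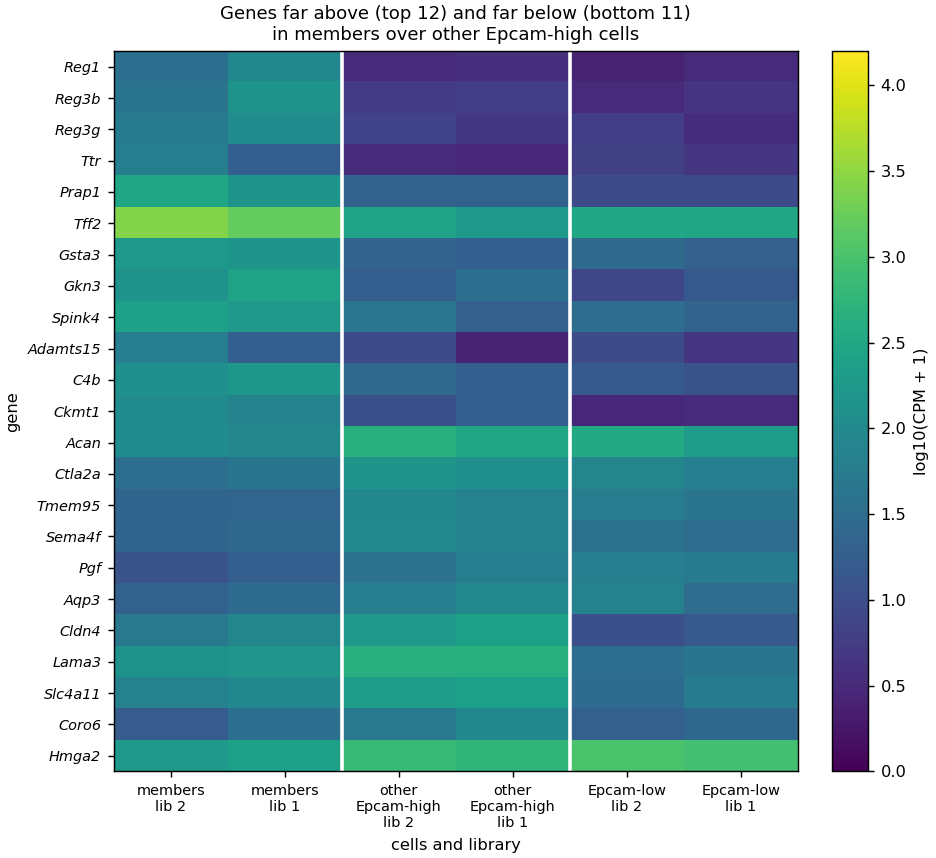
Level, as log10(CPM + 1), of the 12 genes furthest above and 11 of those furthest below in members over other Epcam-high cells, for members, other Epcam-high cells and Epcam-low cells of library 2 and library 1. Reg1, Reg3b and Reg3g are at 33.5 to 150 CPM in members and at or under 6.05 CPM in the other Epcam-high cells, and Hmga2 is highest in Epcam-low cells.

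Members carried more RNA of secreted antimicrobial lectins. Of the 15 genes measured on the mucosal antimicrobial list, 6 were higher and 0 lower, against the 1.86% and 0.674% over all genes. The list median was 1.17 in library 2 and 0.89 in library 1. Reg3b and Reg3g, C-type lectins that kill bacteria at the gut surface, led it together with Reg1. Reg3b stood at 40.5 CPM in members of library 2, against 4.30 in the other Epcam-high cells, and at 150 against 5.08 CPM in library 1. Reg3g stood at 52.4 against 6.05 CPM in library 2 and at 106 against 3.83 CPM in library 1. Reg1, a pancreatic member of the same family, stood at 33.5 against 2.44 CPM in library 2 and at 91.9 against 2.67 CPM in library 1. These genes were on in a minority of members: a Reg3b UMI was found in 11.2% of those of library 2 and 19.2% of those of library 1, against 4.19% and 5.19% of the other Epcam-high cells. The peptidoglycan-binding protein Pglyrp1 was found more evenly, at 575 CPM in members and 199 CPM in the other cells of library 2, and at 585 and 223 CPM in library 1. Lypd8, which binds flagellated bacteria in the colon, and the lung collectin Sftpd were the other 2 of the 6. Duox2 and its partner Duoxa2, which make hydrogen peroxide at mucosal surfaces, fell on either side of the 2-fold line: Duox2 had a log2 ratio of 1.25 in library 2 and 0.74 in library 1. Wfdc2, an epithelial protease inhibitor, was close to the same in both kinds of cell, at 1365 against 1294 CPM in library 2 and 1319 against 1349 CPM in library 1.

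Reg3b, Reg1 and Reg3g lie in a cluster on chromosome 6, with Reg3d and Reg3a among them, at positions 78370885 to 78373466, 78425983 to 78428668 and 78466269 to 78468874, and they were often found in the same cells. The region before the start of Reg3b and of Reg3g is shown because these genes were found together and are close relatives. Motifs, build and capitals are as for Pigr, Ltf and Mmp7.
Reg3b: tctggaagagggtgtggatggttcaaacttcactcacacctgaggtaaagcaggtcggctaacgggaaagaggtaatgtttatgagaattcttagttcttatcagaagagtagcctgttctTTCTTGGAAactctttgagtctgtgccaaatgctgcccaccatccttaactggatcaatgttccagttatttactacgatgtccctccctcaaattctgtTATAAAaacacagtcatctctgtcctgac
Reg3g: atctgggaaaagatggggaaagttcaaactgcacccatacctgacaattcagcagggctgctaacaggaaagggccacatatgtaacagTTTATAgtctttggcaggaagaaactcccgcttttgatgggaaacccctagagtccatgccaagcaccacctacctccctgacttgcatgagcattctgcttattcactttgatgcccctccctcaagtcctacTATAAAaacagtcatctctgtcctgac
The Reg3b window is chr6:78370635-78370884 on the plus strand and the Reg3g window chr6:78468875-78469124 on the minus strand. Aligned, 173 of 247 bases (70.0%) were the same, and the 20 bases that end at the start, acagtcatctctgtcctgac, were identical. A TATA match lay 29 to 24 bases before the start of Reg3b and 27 to 22 before that of Reg3g. Reg3b also held 1 STAT match, and Reg3g a second TATA match on the other strand. In members thinned to 3000 UMIs, Reg3g was detected in 44.4% (8 of 18) of Reg3b-positive cells of library 2 and 8.38% of the others, and in 62.9% (39 of 62) and 5.17% in library 1. Reg1 was detected in 38.9% and 2.79% in library 2, and in 58.1% and 2.40% in library 1. Whether a probe for one Reg3 gene also reads the other is not stated, so their split is uncertain. The tie to Pigr was looser: Reg3g was detected in 12.9% of Pigr-positive and 9.55% of other members of library 2, and in 18.9% and 8.05% in library 1. These pairs of genes were picked after their values were seen.

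Some mucus and gastric genes also stood higher. On the list of mucins and trefoil peptides, 6 of 15 measured genes were higher and 0 lower, with a median of 1.06 in library 2 and 0.66 in library 1. Tff2, a trefoil peptide that is secreted with gastric mucus, stood at 2622 CPM in members and 265 CPM in the other Epcam-high cells of library 2, and at 1615 and 171 CPM in library 1. Agr2, a disulfide isomerase needed to fold mucins, stood at 121 against 24.3 CPM in library 2 and at 156.5 against 19.6 CPM in library 1. Spdef, the transcription factor of goblet cells, stood at 107.5 against 24.5 CPM and at 86.5 against 26.1 CPM in the same order, and the membrane mucin Muc4 at 174 against 60.2 CPM and at 235.5 against 84.9 CPM. Tff1 differed by library: it stood at 2512 against 566 CPM in library 2, but at 1233 against 777.5 CPM in library 1, a log2 ratio of 0.66. Muc5ac, the main gel mucin of the gastric surface, went opposite ways, at 189 against 94.9 CPM in library 2 and at 190.1 against 264 CPM in library 1. Among 7 measured genes of gastric mucous cells, Tff2, the gastrokine Gkn3 and the water channel Aqp5 were higher, and the list median was 1.79 in library 2 and 0.66 in library 1. Gkn3 stood at 143 against 17.0 CPM in library 2 and at 264.5 against 33.5 CPM in library 1. Muc6, of gastric gland cells, was below 1 CPM in all of these groups.

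Complement genes and MHC class II genes also stood higher in members. All 8 measured genes of the complement and acute phase list were above 0 in both libraries, against 48.0% of all genes in each. By the 2-fold count 6 of them were higher, and the list medians were 1.71 in library 2 and 2.09 in library 1. C3, the hub of the cascade, stood at 380.3 CPM in members and 122 CPM in the other Epcam-high cells of library 2, and at 249 and 50.5 CPM in library 1. C4b stood at 127 against 27.1 CPM in library 2 and at 167 against 16.7 CPM in library 1, and the inhibitor Cfi at 354 against 83.4 CPM and at 349 against 82.6 CPM. Of 7 MHC class II genes, which present antigen to CD4 T cells, 6 were higher, with medians of 1.496 in library 2 and 1.38 in library 1. Cd74, the invariant chain, stood at 2720 against 851 CPM in library 2 and at 1510 against 511 CPM in library 1, and Ciita, the factor that turns the class on, at 57.7 against 18.4 CPM and at 37.6 against 10.7 CPM. Macrophages carry these genes too, and the macrophage markers summed to 425 CPM in members and 428 CPM in other Epcam-high cells of library 2, and to 473 and 382 CPM in library 1; their part in the class II values was not tested. Of 14 MHC class I genes, all 14 were above 0 in both libraries but none reached 2-fold in both (medians 0.69 and 0.43). The 23 interferon-response genes split, with a median of -0.05 in library 2 and 0.44 in library 1. Iigp1 and Gbp3, interferon-inducible GTPases, were the 2 that were higher.

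**Figure D3:**
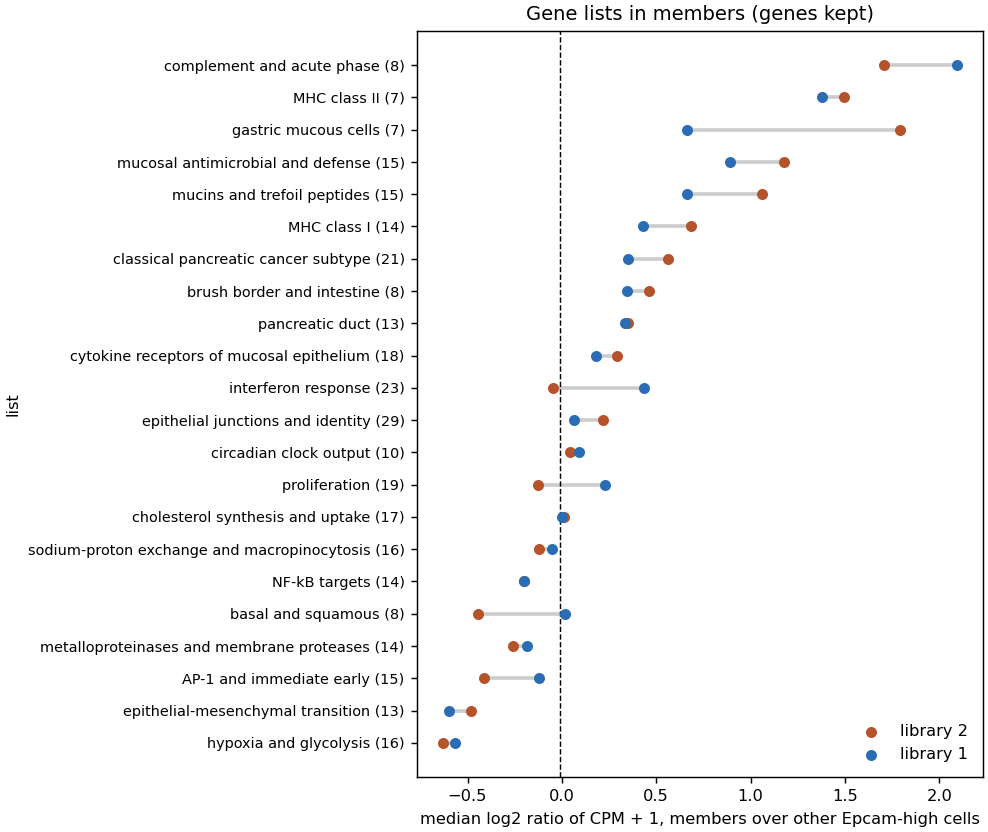
Median log2 ratio of CPM + 1, members over other Epcam-high cells, for the gene lists with at least 5 genes kept (number in brackets), in library 2 and library 1; the dashed line is the median over all genes. Complement genes (1.71 and 2.09) and MHC class II genes (1.496 and 1.38) lie far to the right in both libraries, and the hypoxia and epithelial-mesenchymal lists have the lowest medians.

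Duct and brush border genes differed less. Of 13 duct genes 1 was higher: the chloride channel Cftr stood at 445 against 188 CPM in library 2 and at 323 against 110 CPM in library 1. The duct factor Sox9 was close to level, at 235 against 211.5 CPM in library 2 and at 239 against 213 CPM in library 1. On the brush border list 1 of 8 genes was higher, Lgals2, a galectin of the gut. Prap1, an acidic protein secreted by gut epithelium, was outside the lists and stood at 305 against 20.7 CPM in library 2 and at 149 against 19.4 CPM in library 1. Spink4, a trypsin-inhibitor family protein of goblet cells, stood at 251 against 43.8 CPM and at 177 against 18.2 CPM. Ttr, the carrier of thyroid hormone and retinol, stood at 63.2 against 2.44 CPM in library 2 and at 17.0 against 2.05 CPM in library 1. Of the 18 receptors for mucosal cytokines, 1 was higher: Il17re, which pairs with Il17ra to bind IL-17C, stood at 58.0 against 22.9 CPM and at 55.7 against 22.6 CPM. Il22ra1, the IL-22 receptor chain, was at 50.8 against 40.6 CPM in library 2 and 34.7 against 33.1 CPM in library 1.

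A few mesenchymal and hypoxia genes were lower in members. On the epithelial-mesenchymal transition list 2 of 13 genes were lower and 0 higher, with medians of -0.48 in library 2 and -0.60 in library 1. Loxl2, an enzyme that cross-links collagen, was one of them, at 15.1 CPM in members and 44.1 CPM in the other Epcam-high cells of library 2, and at 17.2 and 37.4 CPM in library 1. Vimentin (Vim) stood at 2394 against 3708 CPM and at 2002 against 3113 CPM, and fibronectin (Fn1) at 1829 against 3536 CPM and at 3002 against 5033 CPM. All 16 hypoxia and glycolysis genes were below 0 in both libraries, where 48.0% of all genes were above 0. The growth factor Vegfa, the glucose transporter Slc2a1 and Adm, 3 of the 16, were lower by the 2-fold count. Vegfa stood at 411 against 1129 CPM in library 2 and at 556 against 1286 CPM in library 1. Hmga2, a chromatin protein of embryonic and high-grade cancer cells, stood at 185 against 673 CPM and at 241.5 against 554 CPM. Acan, the cartilage proteoglycan aggrecan, stood at 109 against 470.0 CPM and at 87.8 against 304.5 CPM, and the laminin chain Lama3 at 144 against 452 CPM and at 155 against 449 CPM. Of 29 junction and identity genes, 1 was higher (Tjp3, a scaffold of tight junctions) and 2 were lower, the claudins Cldn4 and Cldn6, and the list medians were 0.22 in library 2 and 0.07 in library 1. Cldn4 stood at 46.5 against 172 CPM in library 2 and at 85.1 against 243 CPM in library 1. It was high in a small set of members described below. Its log2 ratio, averaged over the libraries, turned to 0.11 when Dmbt1 was left out of the rule. The members that no longer passed then counted among the other Epcam-high cells. Of the genes furthest above, the protease Adamts15 turned to -0.34 in the same setting.

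Against the 5300 cells of library 2 and 5213 of library 1 that had the keratins but under 0.04% Epcam, members differed in many more genes. Of 9012 genes, 565 (6.27%) were higher in members and 204 (2.26%) lower. Of 29 epithelial junction and identity genes 24 were higher and 0 lower, with medians of 2.14 in library 2 and 2.11 in library 1. Cldn7 stood at 449 CPM in members and 22.2 CPM in Epcam-low cells of library 2, and at 465 and 31.6 CPM in library 1. St14, or matriptase, stood at 126 against 5.003 CPM and at 190 against 7.86 CPM, and Esrp1, a splicing factor of epithelial cells, at 80.3 against 5.01 CPM and at 117 against 7.64 CPM. Agr2 was the gene furthest above, at 121 against 2.94 CPM in library 2 and at 156.5 against 4.55 CPM in library 1. Of 15 mucosal antimicrobial genes 10 were higher, and of 14 epithelial-mesenchymal genes 7 were lower. The metalloproteinase Mmp13 stood at 65.4 against 557 CPM and at 132 against 520 CPM, and Inhba, a subunit of activin, at 59.9 against 413 CPM and at 116 against 548 CPM. Several of these genes stood as high in the other Epcam-high cells, where Cldn7 was at 406 and 389 CPM and Esrp1 at 76.4 and 117 CPM.

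Between the libraries, the members differed by less than 2-fold in most genes. Of 8695 genes, 35 (0.403%) were at least 2-fold higher in members of library 2 than in those of library 1 and 37 (0.426%) were lower. The median log2 ratio, library 2 over library 1, was 0.01, and 52.4% of these genes were above 0. Counting intervals lay apart for 41.2% of these genes, and these intervals narrow with the number of UMIs. Of 14 mucin and trefoil genes 2 were higher in library 2 and 1 was lower, with a list median of 0.10. None of 8 brush border genes reached 2-fold, but all 8 were above 0, with a list median of 0.44. The brush border list summed to 2749 CPM in members of library 2 and 2214 CPM in those of library 1. Its sums were 1935 and 1762 CPM in the other Epcam-high cells and 1563 and 1357 CPM in Epcam-low cells. The membrane mucin Muc13 stood at 65.0 CPM in library 2 and 8.43 CPM in library 1, a log2 ratio of 2.81 and the highest of the named genes, and Clca1, which goblet cells secrete with mucus, at 76.1 and 14.5 CPM. A Clca1 UMI was found in 18.4% of members in library 2 and 4.64% in library 1, and its ratio turned to -0.67 when Dmbt1 was left out of the rule. Lypd8 stood at 71.6 and 26.5 CPM, and Rbp2, the retinol carrier of the gut, at 93.1 and 41.7 CPM. Other genes on this side were the semaphorin Sema4g (884 and 397 CPM), the clock gene Per2 (70.2 and 28.6 CPM) and the mitochondrial gene mt-Nd6 (396 and 159 CPM). The mitochondrial share was also larger in library 2, and its part in these levels was not tested. All of these genes also stood higher in library 2 in the other Epcam-high cells. Muc13 was at 13.3 and 0.712 CPM there, Lypd8 at 15.0 and 5.79 CPM and Rbp2 at 29.2 and 14.8 CPM. Clca1 was at 73.1 and 2.85 CPM, with a UMI in 3.74% and 1.25% of those cells. Sema4g was at 303 and 199 CPM, Per2 at 42.8 and 20.5 CPM and mt-Nd6 at 311 and 178 CPM.

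**Figure D4:**
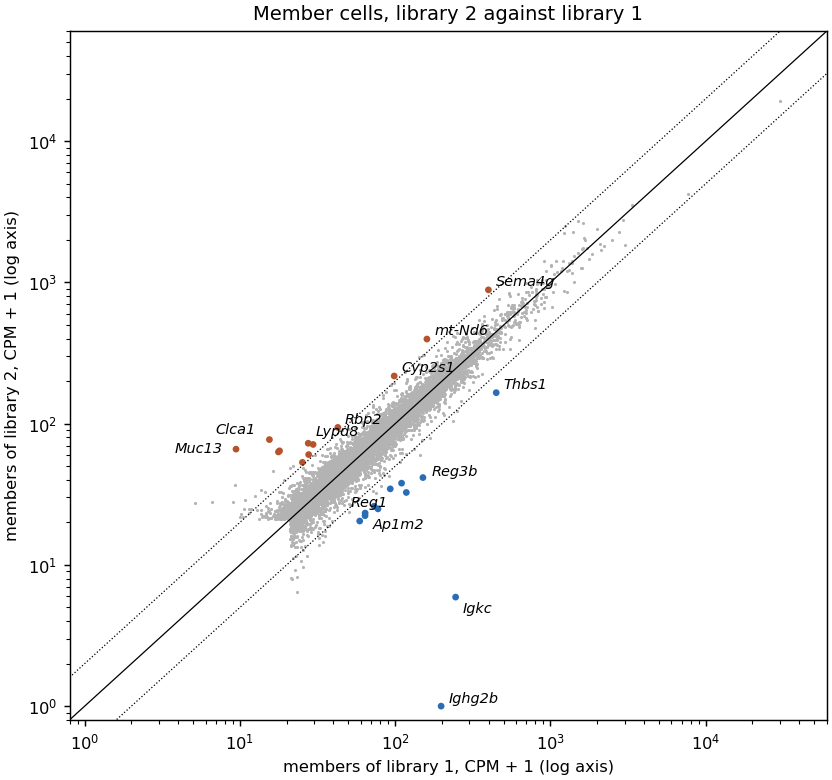
CPM + 1 (log axes) of each gene kept, in members of library 2 (vertical) and library 1 (horizontal); the solid line marks equal levels, the dotted lines 2-fold, and the colored points are the 12 genes furthest above and the 12 furthest below. Most genes lie between the dotted lines, and Igkc and Ighg2b, far below them, each come almost wholly from 1 cell of library 1.

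Antimicrobial genes were among those on the side of library 1. Reg3b stood at 40.5 CPM in members of library 2 and 150 CPM in those of library 1, a log2 ratio of -1.86, and at -0.94 when Dmbt1 was left out of the rule. Reg1 stood at 33.5 and 91.9 CPM, the secreted antimicrobial family protein Bpifb1 at 36.9 and 109 CPM, and Lcn2, or lipocalin 2, which binds bacterial siderophores, at 104 and 235 CPM. On the mucosal antimicrobial list 1 gene was higher in library 2 and 4 were lower, of 15. Oat, ornithine aminotransferase, stood at 31.6 and 117 CPM, and Ap1m2, a clathrin adaptor of epithelial cells, at 22.3 and 63.0 CPM. Thrombospondin 1 (Thbs1) stood at 165 and 446 CPM. In the other Epcam-high cells Bpifb1 was also lower in library 2 than in library 1, at 42.6 and 93.7 CPM. So were Oat (19.8 and 36.3 CPM), Ap1m2 (7.56 and 33.3 CPM) and Thbs1 (548 and 911 CPM). Reg3b (4.30 and 5.08 CPM) and Reg1 (2.44 and 2.67 CPM) were low there in both libraries. The immunoglobulin genes Ighg2b (0 and 197 CPM) and Igkc (4.92 and 244 CPM) were lowest of all in library 2, and 3210 of the 3215 Ighg2b UMIs were in 1 cell of library 1. Without the 3 highest cells of each library their log2 ratios were -0.25 and -0.55, so these levels describe single cells.

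Antigen presentation and the processes that EIPA acts on were looked at by list. Of 14 MHC class I genes 13 were above 0 in library 2 over library 1, and all 7 MHC class II genes were, against 52.4% of all genes. The list medians were 0.58 and 0.60, but no gene of either list reached 2-fold. H2-K1, a classical class I heavy chain, stood at 2219 CPM in members of library 2 and 1220 CPM in those of library 1, and Cd74 at 2720 and 1510 CPM. The 19 interferon-response genes had a median of 0.41. In the other Epcam-high cells Cd74 also stood higher in library 2, at 851 and 511 CPM. The class I list summed to 4529 CPM in members of library 2 and 2735 CPM in those of library 1. Its sums were 2701 and 2047 CPM in the other Epcam-high cells and 1828 and 1039 CPM in Epcam-low cells. The interferon-response list summed to 1264 and 985 CPM in members, 1156 and 753 CPM in the other Epcam-high cells and 694 and 581 CPM in Epcam-low cells. The 16 genes of sodium-proton exchange and macropinocytosis had a median of -0.02, with 0 higher and 0 lower by the 2-fold count. Sdc1, a syndecan that promotes macropinocytosis in pancreatic cancer cells, stood at 1982 CPM in library 2 and 2476 CPM in library 1.

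The members fell into 3 sets by the mucosal gene they carried, a split made after the values were seen. In the first, Mmp7 had the most UMIs of the 4 genes: 18 members (4.79%) of library 2 and 47 (7.78%) of library 1. In the second, drawn from the other members, Pigr and Ltf together reached 0.05%: 43 (11.4%) and 150 (24.8%). These are called the Pigr or Ltf cells below. The remaining 315 (83.8%) and 407 (67.4%) were mostly members by Dmbt1. The median UMI count was 10574 and 9527 in the Mmp7-led cells, 14321 and 13934 in the Pigr or Ltf cells, and 16392 and 19885 in the remaining cells. The doublet caller marked 1 and 1 of the Mmp7-led cells, 0 and 12 of the Pigr or Ltf cells and 14 and 61 of the remaining cells. Both smaller sets took a larger share of the members in library 1 than in library 2.

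**Figure D5:**
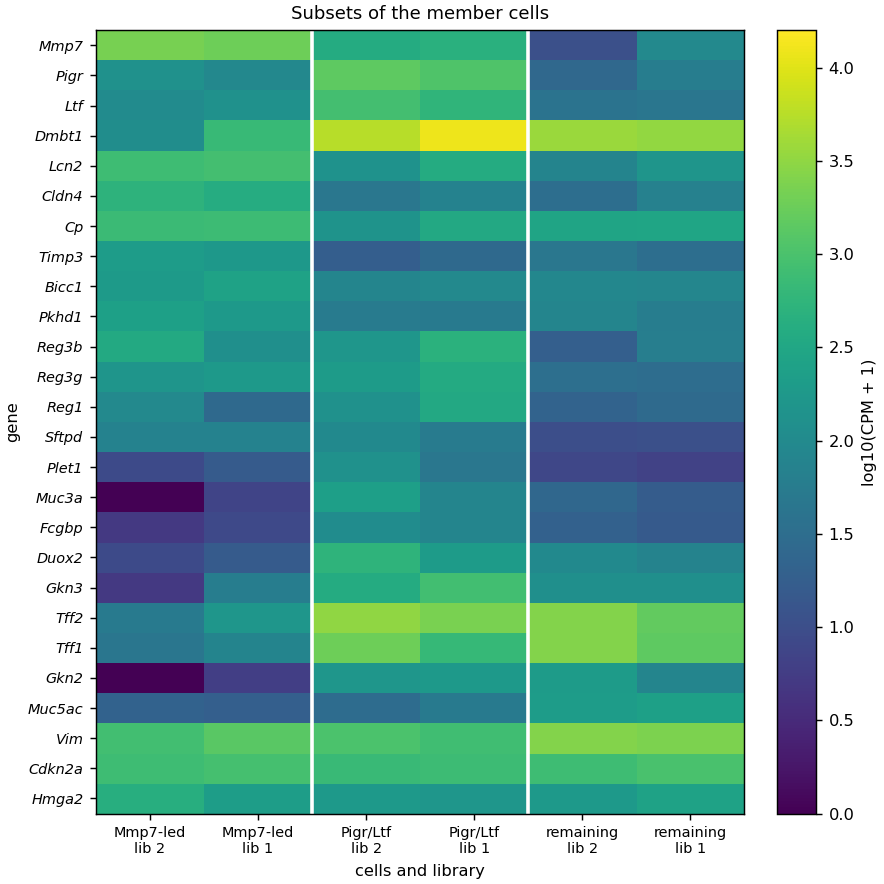
Level, as log10(CPM + 1), of selected genes in Mmp7-led, Pigr or Ltf, and remaining members of library 2 and library 1. The Pigr or Ltf members are those, not Mmp7-led, with Pigr plus Ltf at 0.05% or more. Mmp7-led cells are high in Lcn2, Cldn4, Cp and Pkhd1 and low in Tff1 and Tff2. Plet1, Muc3a and Gkn3 are highest in the Pigr or Ltf cells.

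Against the remaining members, 304 of 9437 genes (3.22%) were higher in the Mmp7-led cells of both libraries and 224 (2.37%) lower. Few cells stand behind these levels, above all in library 2. Lcn2 stood at 798 CPM in the Mmp7-led cells and 78.5 CPM in the remaining members of library 2, and at 891 and 152 CPM in library 1. Without the 3 cells with most Lcn2 UMIs in each group, these were 173 and 67.0 CPM in library 2, and 754 and 129 CPM in library 1. Cldn4 stood at 511 against 31.9 CPM and at 403 against 68.6 CPM, and ceruloplasmin (Cp), a copper-binding acute phase protein, at 731 against 282 CPM and at 746 against 293 CPM. Of 15 duct genes 4 were higher and 1 was lower, with medians of 0.79 in library 2 and 0.31 in library 1. Pkhd1, the fibrocystin of the primary cilium, stood at 240 against 80.5 CPM and at 177 against 59.4 CPM, and Bicc1 at 192.5 against 85.7 CPM and at 261 against 82.2 CPM. Sctr, the secretin receptor of ducts, stood at 181 CPM against 0 in library 2 and at 91.2 against 2.04 CPM in library 1, but it came from 4 and 6 cells. Cftr was the duct gene that was lower, at 114 against 458 CPM and at 98.8 against 304.4 CPM. Of 7 gastric mucous genes 6 were lower and 0 higher, and of 14 mucin and trefoil genes 9 were lower and 1 higher. Tff2 stood at 51.1 against 2643 CPM in library 2 and at 158 against 1535 CPM in library 1, and Tff1 at 43.2 against 2658 CPM and at 77.2 against 1465 CPM. Prap1 was at 0 in the Mmp7-led cells of library 2, where 3 UMIs would be 11.8 CPM, and at 3.80 CPM in library 1, against 201 and 99.1 CPM in the remaining members. Krt19 was lower as well, at 1348 against 3578 CPM and at 1494 against 3337 CPM. Of 14 epithelial-mesenchymal genes 1 was higher and 0 were lower by the 2-fold count. The higher one was the transcription factor Twist1 (19.6 against 4.11 CPM and 22.8 against 5.55 CPM). It reached 20 CPM only in the Mmp7-led cells of library 1. Its level in those of library 2 was near the floor, since 3 UMIs there would be 11.8 CPM. Vim stood at 860.4 against 2592 CPM and at 1342 against 2364 CPM, and Fn1 at 4581 against 1785 CPM and at 5418 against 3019 CPM. Cdkn2a, the tumor suppressor p16 and p19Arf gene, stood at 778 against 799.7 CPM and at 901 against 977 CPM.

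In the Pigr or Ltf cells 59 of 9017 genes (0.654%) were higher than in the remaining members and 15 (0.166%) lower; the groups differ in size from the Mmp7-led cells, so the counts are not compared. The gut gene Plet1 led, at 134.5 against 6.85 CPM in library 2 and at 45.2 against 5.63 CPM in library 1. Reg1, Reg3g and Reg3b followed. Reg3b stood at 162 against 17.5 CPM in library 2 and at 480 against 62.2 CPM in library 1, and Reg3g at 202 against 32.9 CPM and at 363 against 30.9 CPM. Of 17 mucosal antimicrobial genes 9 were higher and 1 was lower, and of 15 mucin and trefoil genes 3 were higher and 1 was lower. The membrane mucin Muc3a stood at 234 against 24.6 CPM and at 80.2 against 16.0 CPM, and Fcgbp, which binds the IgG Fc part and cross-links mucus, at 109 against 18.9 CPM and at 81.1 against 14.2 CPM. Gkn3 stood at 381 against 122 CPM in library 2 and at 842.5 against 121 CPM in library 1. Slc9a4, a sodium-proton exchanger of gastric epithelium, was among the 12 furthest above, at 55.8 against 10.1 CPM and at 22.9 against 5.88 CPM. Dmbt1 itself, a gene of the rule, was at 5673 against 3653 CPM in library 2 and at 12314 against 3269 CPM in library 1. The gel-forming mucins were the 2 genes furthest below by the mean of the libraries. Muc5ac stood at 29.6 against 212 CPM and at 52.5 against 238 CPM. Muc5b stood at 4.56 against 34.8 CPM and at 42.8 against 84.7 CPM. Its level in the Pigr or Ltf cells of library 2 came from 3 cells, and 3 UMIs there would be 3.42 CPM. In library 1 its log2 ratio was -0.97, so it was not lower by the 2-fold count. Vim stood at 1023 against 2592 CPM and at 823 against 2364 CPM.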

How the data were processed

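Flash-frozen pooled tumors were profiled with a probe-based single-cell assay for fixed RNA. The deposited matrix holds UMI counts per gene and barcode, made with Cell Ranger 8.0.0 on mm10, per the submitters' processing notes. UMI counts were summed over the cells of a group and library and given as CPM with exact Poisson intervals, and shares of cells have exact Clopper-Pearson intervals. Ratios are log2 of CPM plus 1, over genes with at least 20 CPM in 1 group, without the 11 genes of the rule. Named genes were the 12 with the most extreme log2 ratios each way (the mean of both libraries for cells against cells), at least 50 CPM, counting intervals apart, and the same sign without the 3 highest cells. With 1 library per treatment no test was made, and cells were not used as replicates. Scrublet, run through scanpy 1.11.5, marked possible doublets at a rate set by library size, and these cells were kept. TMM factors from edgeR 4.0.16 in R 4.3.3, other thresholds, pseudocounts and filters were alternatives. The ratio code was checked on simulated counts. Sums and intervals used scipy 1.17.1 under Python 3.11.15, with pandas 2.3.3 for the tables. Promoters came from RefSeq tables of GRCm38.p6, in which 14 of 18 genes looked up had an entry. A few genes are not reported here. The members and gene lists were chosen with earlier results of these data known. The total depth was 185474400 UMIs in library 2 and 203459556 in library 1.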

Additional observations from a re-analysis of the deposited data

Results flagged for a closer look

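For a few genes the difference between members and other cells went opposite ways in the 2 libraries. None of these differences was tested, since each library is a single sample, and each value below is the log2 ratio in library 2 minus that in library 1. Against the other Epcam-high cells, Muc5ac differed by 1.458 (0.99 in library 2 and -0.47 in library 1). Cdhr2, a cadherin of the brush border, differed by 1.145, with 58.7 CPM in members and 42.7 CPM in other cells of library 2, and 32.9 and 54.0 CPM in library 1. Egr1, an immediate early gene, differed by -0.851, with 123 and 168 CPM in library 2 and 251 and 190 CPM in library 1.

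Against Epcam-low cells, Muc5ac differed by 1.329. Cell cycle genes did so in the other direction. Their list median differed by -0.834: none of the 19 genes was above 0 in library 2 and all 19 were in library 1. Over all genes 45.4% were above 0 in library 2 and 46.1% in library 1. Hist1h1b, a linker histone, differed by -1.594, with 98.0 CPM in members and 149 CPM in Epcam-low cells of library 2, and 86.2 and 42.8 CPM in library 1. Top2a differed by -1.116, with 83.8 and 109 CPM in library 2 and 77.1 and 45.7 CPM in library 1. Birc5 differed by -0.9609. The members' own levels of these 3 genes were close between libraries, and those of the Epcam-low cells were lower in library 1.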

How the results depend on the processing

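No paired analysis was possible because the labels give no replicate numbers and each treatment has 1 library. Leaving Dmbt1 out of the mucosal sum moved the most: the ratio of member shares became 0.298 (62 members in library 2 and 215 in library 1). Ltf detection with Pigr minus without Pigr became 13.95 percentage points in library 1, against 28.3. In library 2 it became 8.65 percentage points, against 20.8. The genes 2-fold higher and lower in library 2 became 168 and 88, and those lower than in other Epcam-high cells 18. Clca1 turned to -0.67 between libraries, and Adamts15 and Cldn4 turned to -0.34 and 0.11 over other Epcam-high cells. In this setting the other Epcam-high cells included the members that no longer passed. Without any Ptprc UMI, Igkc turned to 0.27. With 10 CPM added, the counts between libraries were 16 higher and 16 lower, over other Epcam-high cells 100 and 34, and 125 were lower than in Epcam-low cells. With all genes that had a UMI they were 117 and 160 between libraries, 263 higher over other Epcam-high cells and 856 higher over Epcam-low cells. With genes of at least 50 CPM they were 16 and 20, 98 and 38, and 355 higher over Epcam-low cells, and the basal and squamous list turned to -1.01 there. Of the alternative values of single genes 780 moved by less than their counting interval, 272 by more, and 4 turned. Leaving out a replicate was not possible, and no alternative speaks to differences between tumors.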
